A study of Mus musculus with 7 samples.

Results

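Chromatin accessibility was described at the genes of 3 cytokine receptors, those for IL-12, IL-23 and IFNγ. The genes are Il12rb1, Il12rb2, Il23r, Ifngr1 and Ifngr2. They were chosen by name with earlier results of these data known, and their regions were all those of the peak table that overlapped the GENCODE gene model or 10 kb on either side. This gave 85 of the 113820 regions in the table, of which 28 belonged to Il12rb2, 20 to Il23r, 20 to Ifngr1, 9 to Il12rb1 and 8 to Ifngr2. A region had entered the table because a peak was called there in at least 1 library. Having some signal was thus selected on. A region open in 1 population only could enter through that population, so that its difference was in part selected too. The same holds for all regions of the table, and how far it bears on the calls was not tested.

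IL-12 binds a pair of chains, IL-12Rβ1, which is shared with the IL-23 receptor, and IL-12Rβ2. IL-23 pairs the same IL-12Rβ1 with IL-23R. IL-12Rβ2 is the signaling chain that activates STAT4 and is known to be kept by Th1 cells and lost as Th2 cells differentiate, IL-23R acts mainly through STAT3 and is best known from Th17 cells, and IFNγ binds IFNGR1, which needs IFNGR2 to signal. In the mouse genome Il12rb2 and Il23r are neighbors on chromosome 6 and are read in the same direction.

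The 7 ATAC-seq libraries came from CD4+ T cells sorted by a cytokine reporter on day 8 after C57BL/6 mice had been given 500 larvae (L3) of Nippostrongylus brasiliensis under the skin, a helminth that drives a type-2 response. GFP+ cells of IL-4 4get mice were taken from the LN (lung-draining mediastinal lymph nodes; n = 2) and from the lung (n = 3), and YFP+ cells of IFN-gamma Great mice were taken from the lung (n = 2). All groups were infected and naive cells are not analysed here, the IFNγ+ lung and IL-4+ cells came from different reporter lines, so that line and population cannot be told apart, and a reporter marks cells able to transcribe the cytokine gene rather than a pure subset. Each library was made from 50000 cells, and the study describes a single experiment with 2 or 3 mice per group, so that the p-values below measure the spread between these samples. Accessibility was given as log2 normalized transposase insertions per kilobase of a region, called density here, and a region was called when limma's adjusted p over all 113820 regions was below 0.05 and the fold change was at least 3.

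By rebuilt counts, which are lower bounds, the libraries held 14005923 to 91681969 insertions, and the median region held 53 to 176. The upper quartile of insertions per region exceeded the lower by 1.67 to 1.75 on the log2 scale in a narrow class (IL-4+ LN replicate 1 and IL-4+ lung replicates 2 and 3) and 2.91 to 3.09 in a wide class (IL-4+ LN replicate 2, IL-4+ lung replicate 1 and both IFNγ+ lung libraries). These classes cross the populations, but no IFNγ+ lung library was narrow, so within-class values are given beside the main results. A comparison within the wide class rests on 1 library of each IL-4+ population. Signal at the reporter genes followed the labels: the summed normalized insertions over Ifng were 71.2 and 72.0 in the IFNγ+ lung libraries and 12.5 to 30.8 in the 5 IL-4+ libraries, and those over Il4 were 39.6 and 54.4 against 106.9 to 171.6. Among markers of other cells, Ms4a1, Ncr1 and Lyz2 had no region. Summed normalized insertions were 1.4 to 3.4 for Cd8a and 4.9 to 11.0 for Cd8b1 over all libraries. Other markers held more signal in every library. The 4 B cell markers with a region summed to 132.5 to 198.5, most of it at Cd79a (92.4 to 137.6). The 2 endothelial markers summed to 154.2 to 241.4, most of it at Pecam1 (148.1 to 234.4), and the 3 of lung epithelium to 22.2 to 30.9. The 3 of 4 markers of natural killer cells and innate lymphoid cells that had a region (Klrb1c, Klra8 and Eomes) summed to 164.6 and 167.0 in the IFNγ+ lung libraries and to 124.7 to 137.3 in the others. Most of this was Klrb1c, which held 110.2 and 113.1 in IFNγ+ lung against 63.9 to 72.1 in the other libraries, whereas Eomes held 54.3 and 48.6 against 52.3 to 68.9. Itgam, 1 of the 4 myeloid markers with a region, held 25.8 and 30.4 against 8.2 to 12, while the summed signal of the myeloid markers was 89.8 to 92.5 in IFNγ+ lung, 74.5 to 79.8 in IL-4+ lung and 107.5 to 127.9 in IL-4+ LN libraries. The sort had removed cells that stained for NK1.1 (encoded by Klrb1c), CD11b (encoded by Itgam), CD11c, CD8, B220 or Ter119, and whether other cells have a part in the results was not tested. In sorted populations, a larger share of cells with an open region and more openness per cell cannot be told apart.

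Accessibility separated IFNγ+ lung cells from both IL-4+ populations at Il12rb2 and Il23r, the genes of the cytokine-specific chains. Of the 85 regions, 6 were called between IL-4+ lung and IFNγ+ lung cells, 4 at Il12rb2 and 2 at Il23r, and all were lower in IL-4+ lung cells. That is 7.06% of the receptor regions, beside 0.387% of all regions called higher in IFNγ+ lung cells, and 0 were called higher in IL-4+ lung cells, beside 0.108% of all regions. At an unadjusted p below 0.05, 28 of the 85 regions differed (32.9%, beside 14.8% of all regions). Between IFNγ+ lung and IL-4+ LN cells 8 regions were called, 3 at Il12rb2, 4 at Il23r and 1 at Ifngr2, and all were higher in IFNγ+ lung cells. This was 9.41% of the receptor regions, beside 2.17% of all regions called in that direction and 0.862% called higher in IL-4+ LN cells. Of the 10 regions called in either comparison, 4 were called in both; the comparisons share the IFNγ+ lung libraries, and neighboring regions of 1 gene are not independent. Without replicate 1 or without replicate 2 of the IFNγ+ lung cells 0 receptor regions were called in either comparison. Few of the 113820 regions were called in those fits either: those called higher in IFNγ+ than in IL-4+ lung cells went from 441 to 0 in both, and those higher than in IL-4+ LN cells from 2469 to 92 and 166. Against IL-4+ lung cells, 0 receptor regions were also called without IL-4+ lung replicate 2 and 1 without IL-4+ lung replicate 3, where 1 and 40 of all regions were called in that direction. Over all alternatives the log2 differences of the called regions stayed between -3.04 and -1.79 in the first comparison and between 1.57 and 4.33 in the second. Within the wide class they ran from -2.82 to -2.21 in the first and from 1.92 to 3.73 in the second.

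Between IL-4+ lung and IL-4+ LN cells, limma called 0 of the 85 regions in either direction, beside 1.05% of all regions called higher in the lung and 0.695% called higher in the LN. At an unadjusted p below 0.05, 19 of the 85 regions differed (22.4%, beside 16.2% of all regions), and voom on the rebuilt counts also called 0. With the spread class as a covariate 4 were called higher in IL-4+ lung cells, in a fit that called 2436 of all regions in that direction where 1191 were called without the covariate, and without IL-4+ lung replicate 1 or either IL-4+ LN library, 1 was called.

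**Figure D1:**
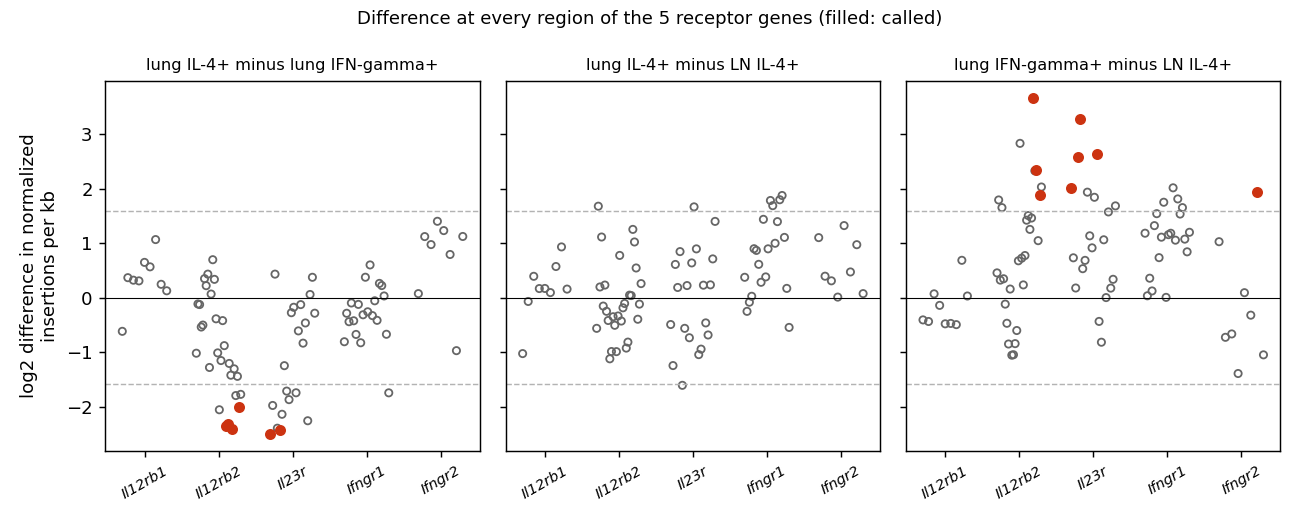
Log2 difference in normalized insertions per kb at each of the 85 regions, by gene and in genome order within a gene, for the 3 comparisons; filled points passed limma's adjusted p of 0.05 and a fold of 3 (dashed lines). The 6 called points of the left panel lie below 0 and the 8 of the right one lie over it, and the middle one has none.

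A few sequences are shown for orientation before the values. The promoter of Il12rb2 is the only receptor promoter at an annotated gene start that was called, and it is printed beside that of Il23r, which was not called. Each is the RefSeq window (GRCm38.p6) of 250 bases before to 50 after the start, given on the minus strand on which both genes are read. Promoters of 4 of the 5 genes were found in that table, all but Il12rb1. The other sequences are the central 300 bases of called regions, on the plus strand: the most accessible region of Il12rb2, the regions of Il12rb2 and of Il23r with their largest fold change from IL-4+ LN cells, and the called region of Ifngr2. Capitals mark matches to 5 motif letter patterns.

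Il12rb2 promoter, chr6:67376139-67376438: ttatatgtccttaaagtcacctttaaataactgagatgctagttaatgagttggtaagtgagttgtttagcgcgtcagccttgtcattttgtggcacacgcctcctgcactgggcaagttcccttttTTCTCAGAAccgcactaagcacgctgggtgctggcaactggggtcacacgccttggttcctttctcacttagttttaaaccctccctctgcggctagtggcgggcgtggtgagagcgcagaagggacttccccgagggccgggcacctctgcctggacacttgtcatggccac
Il23r promoter, chr6:67491806-67492105: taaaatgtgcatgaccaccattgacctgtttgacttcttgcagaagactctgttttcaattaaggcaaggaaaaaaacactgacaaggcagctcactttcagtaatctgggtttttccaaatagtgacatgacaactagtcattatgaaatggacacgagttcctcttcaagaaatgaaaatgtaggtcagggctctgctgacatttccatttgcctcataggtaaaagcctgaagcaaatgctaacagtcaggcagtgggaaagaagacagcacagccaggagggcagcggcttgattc
Il12rb2 intron, chr6:67348059-67348358: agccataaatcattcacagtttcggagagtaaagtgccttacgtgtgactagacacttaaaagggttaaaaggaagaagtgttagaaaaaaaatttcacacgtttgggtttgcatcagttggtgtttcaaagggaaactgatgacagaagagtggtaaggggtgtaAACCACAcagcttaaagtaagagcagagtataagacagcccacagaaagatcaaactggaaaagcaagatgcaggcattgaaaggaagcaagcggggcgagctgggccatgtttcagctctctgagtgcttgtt
Il12rb2 intron, chr6:67367179-67367478: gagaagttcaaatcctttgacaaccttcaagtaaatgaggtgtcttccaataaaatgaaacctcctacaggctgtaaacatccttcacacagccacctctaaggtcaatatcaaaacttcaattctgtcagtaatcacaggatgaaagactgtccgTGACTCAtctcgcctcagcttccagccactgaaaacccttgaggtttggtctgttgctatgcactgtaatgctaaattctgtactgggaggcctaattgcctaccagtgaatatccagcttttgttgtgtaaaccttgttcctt
Il23r intron, chr6:67431800-67432099: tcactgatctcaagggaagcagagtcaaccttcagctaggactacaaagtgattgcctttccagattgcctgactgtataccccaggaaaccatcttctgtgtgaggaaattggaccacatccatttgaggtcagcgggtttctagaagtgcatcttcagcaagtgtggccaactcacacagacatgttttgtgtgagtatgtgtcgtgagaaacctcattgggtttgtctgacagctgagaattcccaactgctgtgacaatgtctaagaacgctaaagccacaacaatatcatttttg
Ifngr2, chr16:91561949-91562248: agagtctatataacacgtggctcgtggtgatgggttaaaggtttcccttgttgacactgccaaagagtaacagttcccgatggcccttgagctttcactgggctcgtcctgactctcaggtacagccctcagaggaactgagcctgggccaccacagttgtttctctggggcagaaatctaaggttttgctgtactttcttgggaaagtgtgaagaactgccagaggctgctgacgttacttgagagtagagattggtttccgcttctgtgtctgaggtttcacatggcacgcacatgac

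Both strands were searched, and no matches overlap in the printed windows. STAT proteins were searched for as TTCNNNGAA. The pattern for T-box proteins was AGGTGTGA. Runx proteins were represented by AACCACA. The bZIP proteins, such as AP-1, were represented by TGANTCA. For GATA proteins it was AGATAA. The Il12rb2 promoter held 1 STAT match, TTCTCAGAA, a pattern found in 8.30% of 32851 RefSeq promoters, and the Il23r promoter held none of the 5. Among the central windows of the 10 called regions, 2 had a Runx match (at Il12rb2 and Il23r), 1 a GATA match and 1 a bZIP match (both at Il12rb2), 0 a STAT or T-box match, and 6 none. Over all 113820 regions, the same windows held a Runx match in 11.0%, a GATA match in 15.2%, a bZIP match in 13.0%, a STAT match in 9.32% and a T-box match in 1.68%. Over all 85 receptor regions the matches numbered 5, 13, 11, 8 and 0 regions in that order.

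Il12rb2, the gene of the IL-12-specific chain (chr6:67291318-67376188, minus strand), was the receptor gene whose summed signal was called in both comparisons with IFNγ+ lung cells. The normalized insertions summed over its 28 regions were 89.4 and 89.6 in IL-4+ LN libraries, 58.1, 74.7 and 71.7 in IL-4+ lung libraries and 147.6 and 163.9 in IFNγ+ lung libraries. No library of one population overlapped those of another. The sum was 2.29-fold lower in IL-4+ lung than in IFNγ+ lung cells (log2 difference -1.20, SE 0.14, limma adjusted p = 0.0494 over 17021 genes), and 0.0529% of gene sums were called in that direction. It was 1.74-fold higher in IFNγ+ lung than in IL-4+ LN cells (0.80 on the log2 scale, SE 0.15, limma adjusted p = 0.0414), beside 1.34% of gene sums called higher and 0.811% called lower. IL-4+ lung and IL-4+ LN cells differed by -0.40 (SE 0.14), which was not called (limma adjusted p = 0.247), while 0.664% of gene sums were called higher and 0.417% lower in that comparison. Within the wide class the differences were -1.42 and 0.80 for IL-4+ lung against IFNγ+ lung and for IFNγ+ lung against IL-4+ LN cells. Both calls lay near the threshold: over 20 alternatives the adjusted p ranged from 0.000692 to 0.845 for the first, which 9 of them called, and from 0.000855 to 0.442 for the second, which 8 called. The first was lost when any 1 IL-4+ lung library was left out, in fits that called 0 of the 17021 gene sums in that comparison. The second was lost without IL-4+ lung replicate 2 or 3, where 30 and 103 of all gene sums were called higher in IFNγ+ lung cells (228 with all libraries). Both were also lost without either IFNγ+ lung library, and the second without IL-4+ LN replicate 1. Such fits leave 1 library in a population and called fewer gene sums in general.

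**Figure D2:**
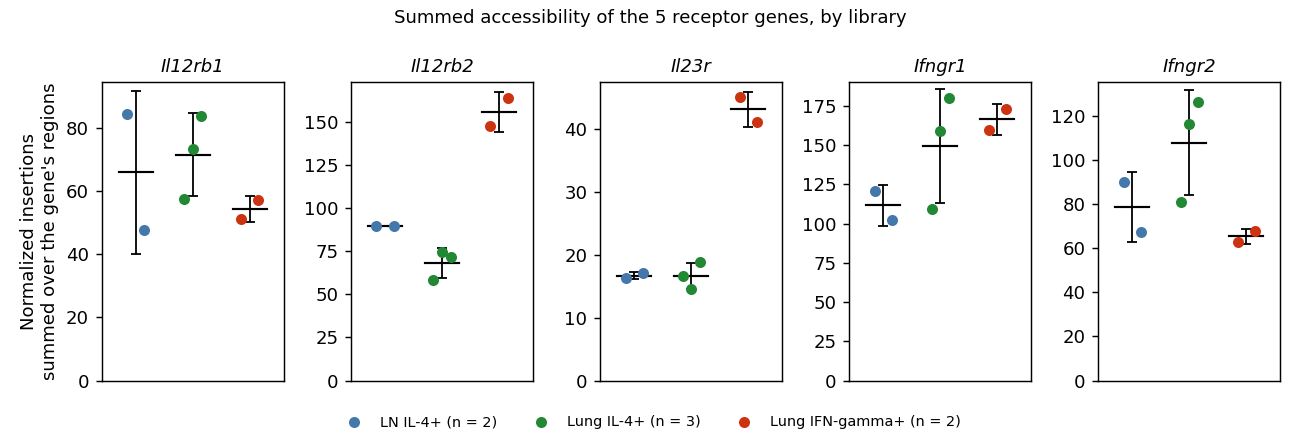
Normalized insertions summed over all regions of a gene and 10 kb on each side (vertical axis), 1 point per library with the mean and SD of each population. The IFNγ+ lung points stand above all IL-4+ points at Il12rb2 (147.6 and 163.9) and Il23r (41.2 and 45.1), and not at Il12rb1, Ifngr1 or Ifngr2.

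The most accessible region of the gene lay in an intron 28.0 kb inside it (chr6:67347957-67348460). Its density was 21.1 and 35.0 in IL-4+ LN, 16.7, 14.8 and 15.0 in IL-4+ lung and 71.8 and 83.4 in IFNγ+ lung libraries. The populations did not overlap, with the IL-4+ lung libraries lowest. It was 5.01-fold lower in IL-4+ lung than in IFNγ+ lung cells (log2 difference -2.33, SE 0.22, limma adjusted p = 0.0100). Against IL-4+ LN cells the IFNγ+ lung density was 2.85-fold higher (1.51, SE 0.25, limma adjusted p = 0.00908), which is below the fold minimum, so the region was not called there. The counts behind these values were 123 to 339 rebuilt insertions in IL-4+ lung and 2319 and 4754 in IFNγ+ lung libraries.

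A region 8.86 kb inside Il12rb2, also intronic (chr6:67367104-67367552), ranked the populations differently. Its density was 1.2 and 1.6 in IL-4+ LN, 3.0, 3.3 and 3.8 in IL-4+ lung and 19.5 and 16.4 in IFNγ+ lung libraries. Here the LN libraries were lowest and again no populations overlapped. The region was 12.7-fold higher in IFNγ+ lung than in IL-4+ LN cells (log2 difference 3.67, SE 0.38, limma adjusted p = 0.00173), the largest difference of the 85 regions in that comparison, and 5.34-fold lower in IL-4+ lung than in IFNγ+ lung cells (-2.42, SE 0.35, limma adjusted p = 0.0222). The IL-4+ lung libraries were 2.39-fold above the LN libraries, which was not called (limma adjusted p = 0.0907).

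At the start of Il12rb2, the promoter region (chr6:67375238-67376474) had densities of 5.2 and 5.0 in IL-4+ LN, 3.5, 6.1 and 4.9 in IL-4+ lung and 18.1 and 19.6 in IFNγ+ lung libraries. The IL-4+ populations overlapped each other and both lay below the IFNγ+ lung libraries. It was called in both comparisons with IFNγ+ lung cells, 4.01-fold lower in IL-4+ lung cells (log2 difference -2.00, SE 0.30, limma adjusted p = 0.0241) and 3.69-fold higher than in IL-4+ LN cells (1.89, SE 0.33, limma adjusted p = 0.0124). Between lung and IL-4+ LN cells it differed by -0.12 (SE 0.30).

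A region at an internal annotated start of Il12rb2, 36.8 kb inside the gene (chr6:67338797-67339930), was lowest in IL-4+ lung cells. Its log2 densities were 2.20 and 2.37 in IL-4+ LN, 1.31, 1.95 and 0.82 in IL-4+ lung and 3.59 and 3.83 in IFNγ+ lung libraries, and it was called against IFNγ+ lung cells (5.10-fold lower, limma adjusted p = 0.0305) but not between IFNγ+ lung and IL-4+ LN cells (1.42, SE 0.42, limma adjusted p = 0.0928). The intronic region 2.58 kb inside (chr6:67373141-67374069) had 1.3 in both LN libraries, 1.7, 2.7 and 1.4 in IL-4+ lung and 5.5 and 7.5 in IFNγ+ lung libraries, and was called only between the last and IL-4+ LN cells (5.08-fold, limma adjusted p = 0.0402), a call that was also lost without either IL-4+ LN library or IL-4+ lung replicate 2.

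The other 23 regions of Il12rb2 were not called in any comparison. Another order was seen at, for example, the intronic region 57.8 kb inside (chr6:67317822-67318938): the log2 density was 3.66 and 3.96 in IL-4+ LN, 2.73, 2.99 and 2.72 in IL-4+ lung and 3.21 and 3.20 in IFNγ+ lung libraries, highest in the LN. Its difference between lung and IL-4+ LN cells was -0.99 (SE 0.25, limma adjusted p = 0.0610). The regions of the window from chr6:67281607 to 67296573 overlap the gene model of Serbp1, which is not a receptor gene. Those up to 67289288 overlap Serbp1 and not Il12rb2. All of them count in the Il12rb2 sum and in the medians that follow. Over the 28 regions the median log2 difference was -1.02 for IL-4+ lung minus IFNγ+ lung cells and 0.75 for IFNγ+ lung minus IL-4+ LN cells, where the medians of all regions were -0.01 and -0.03.

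**Figure D3:**
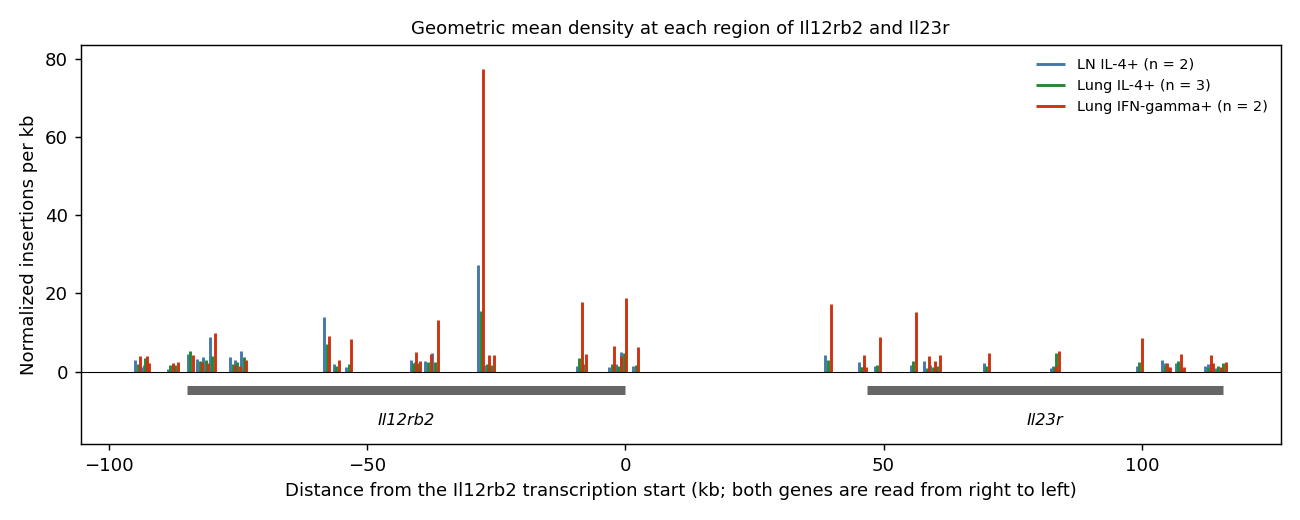
Geometric mean density (normalized insertions per kb, linear axis) at each region of Il12rb2 and Il23r, by distance from the Il12rb2 start, with 1 line per population drawn side by side and gray bars for the genes. The tallest line is the IFNγ+ lung value at the Il12rb2 intron 28.0 kb inside the gene, and the IFNγ+ lung lines also stand above the others at the Il12rb2 start and at sites in and beyond Il23r.

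Il23r, the gene of the IL-23-specific chain (chr6:67422932-67491855, minus strand), was low in IL-4+ cells and higher in IFNγ+ lung cells. Its summed normalized insertions were 16.3 and 17.2 in IL-4+ LN, 16.6, 14.5 and 18.8 in IL-4+ lung and 45.1 and 41.2 in IFNγ+ lung libraries. The IL-4+ populations overlapped, and the IFNγ+ lung libraries stood apart from both. The sum was 2.58-fold higher in IFNγ+ lung than in IL-4+ LN cells (log2 difference 1.37, SE 0.19, limma adjusted p = 0.0163). IL-4+ lung cells were 2.60-fold below IFNγ+ lung cells (-1.38, SE 0.17), which just missed the threshold (limma adjusted p = 0.0510) and was called under 9 of 20 alternatives, whose adjusted p ranged from 0.00381 to 0.845. The former call was kept under 13 of 20 alternatives, with adjusted p from 0.000844 to 0.304, and was lost without IL-4+ lung replicate 2 or either IFNγ+ lung library. The fit without IL-4+ lung replicate 2 called 30 of all 17021 gene sums higher in IFNγ+ lung than in IL-4+ LN cells, where 228 were called with all libraries. Those without an IFNγ+ lung library leave 1 library in that population and called fewer gene sums in general. Within the wide class the Il23r differences were 1.33 for IFNγ+ lung minus IL-4+ LN and -1.37 for IL-4+ lung minus IFNγ+ lung cells. Lung and IL-4+ LN cells differed by -0.01 (SE 0.17).

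The called regions of Il23r were distal to its start. The largest change was in an intron 59.9 kb inside (chr6:67431745-67432154), with densities of 2.1 and 1.1 in IL-4+ LN, 2.7, 2.8 and 3.0 in IL-4+ lung and 17.1 and 13.4 in IFNγ+ lung libraries. All IFNγ+ lung values lay above all others. The region was 9.69-fold higher in IFNγ+ lung than in IL-4+ LN cells (log2 difference 3.28, SE 0.44, limma adjusted p = 0.00413) and 5.38-fold lower in IL-4+ lung than in IFNγ+ lung cells (-2.43, SE 0.40, limma adjusted p = 0.0306).

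The other region called in both comparisons lay beyond the end of Il23r, between the genes (chr6:67415195-67415698). Its densities were 5.8 and 3.1 in IL-4+ LN, 2.4, 4.3 and 2.7 in IL-4+ lung and 18.1 and 16.5 in IFNγ+ lung libraries, a 5.69-fold lower value in IL-4+ lung than in IFNγ+ lung cells (limma adjusted p = 0.0246). Against IL-4+ LN cells the IFNγ+ lung value was 4.04-fold higher (limma adjusted p = 0.0263), which was not called without IL-4+ LN replicate 2. In an intron 16.1 kb inside Il23r (chr6:67475529-67475965) densities were 1.1 and 1.7 in IL-4+ LN, 3.0, 2.0 and 2.7 in IL-4+ lung and 8.0 and 9.1 in IFNγ+ lung libraries. Only the 6.25-fold difference between IFNγ+ lung and IL-4+ LN cells was called there (limma adjusted p = 0.0131). The intronic region 66.8 kb inside (chr6:67424805-67425208) behaved alike, at 10.5 and 7.6 in IFNγ+ lung against 2.4 and 0.9 in IL-4+ LN libraries (6.00-fold, limma adjusted p = 0.0412), but this call rested on 11 and 47 rebuilt insertions in the LN libraries and was lost without IL-4+ LN replicate 2 or IL-4+ lung replicate 2 or 3.

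At its annotated start Il23r had low values in every population. The log2 density of the start region (chr6:67491787-67492187) was 0.01 and -0.68 in IL-4+ LN, 1.95, 0.56 and 0.69 in IL-4+ lung and 1.27 and 1.43 in IFNγ+ lung libraries. The lung populations overlapped, and no comparison was called. A second region near the start (chr6:67490809-67491209) had a log2 density between -0.46 and 0.97 in all 7 libraries.

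**Figure D4:**
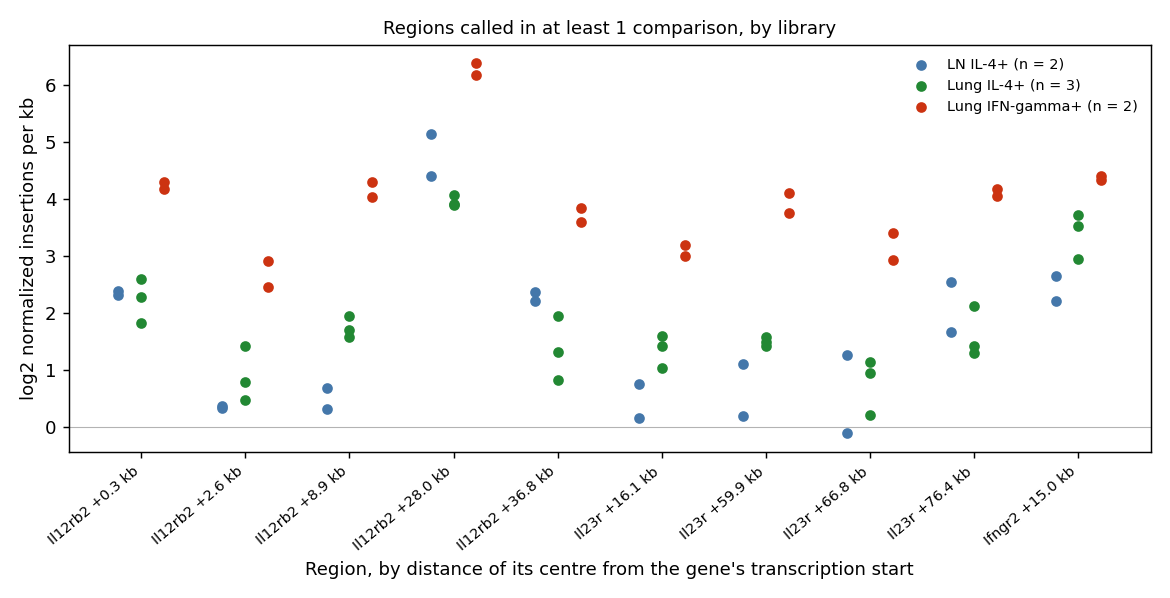
Log2 normalized insertions per kb of every library at the 10 regions called in at least 1 comparison, named by gene and by the distance of the region's centre from the gene start. The 2 IFNγ+ lung points are the highest at each region, and the IL-4+ lung points lie between the others at, for example, the Il12rb2 region 8.86 kb inside and the Ifngr2 region.

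Il12rb1, the gene of the chain shared by both receptors (chr8:70808449-70821424, plus strand), did not separate the populations by its summed signal. Its summed normalized insertions were 84.2 and 47.6 in IL-4+ LN, 57.4, 73.2 and 83.7 in IL-4+ lung and 51.2 and 57.1 in IFNγ+ lung libraries. The LN libraries held the lowest and the highest value, and the 3 libraries of the narrow class (73.2 to 84.2) lay above the 4 of the wide class (47.6 to 57.4). The log2 differences were 0.39 (SE 0.25) for IL-4+ lung minus IFNγ+ lung, 0.16 (SE 0.25) for IL-4+ lung minus IL-4+ LN and -0.23 (SE 0.28) for IFNγ+ lung minus IL-4+ LN cells, none of them called (limma adjusted p = 0.415, 0.847 and 0.678). Within the wide class they were 0.09, 0.27 and 0.18, so that the last changed sign.

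The region at the Il12rb1 start (chr8:70808188-70809176) had a log2 density of 3.91 and 2.65 in IL-4+ LN, 3.13, 3.45 and 3.77 in IL-4+ lung and 2.66 and 2.94 in IFNγ+ lung libraries, with overlap between the LN and both lung populations. The highest region of the window was instead at the promoter of Mast3, 3.90 kb before the start, at 3.49 to 4.39 in all 7 libraries. That region and the one before it (chr8:70801125-70801572) overlap the gene model of Mast3, which is not a receptor gene, and not that of Il12rb1. Both count in the Il12rb1 sum and in its differences and density. The region with the smallest adjusted p lay 2.86 kb inside the gene near an internal start (chr8:70810919-70811696). Its log2 density was 2.68 and 2.43 in IL-4+ LN, 3.44, 3.49 and 3.54 in IL-4+ lung and 3.25 and 3.23 in IFNγ+ lung libraries, so that the LN was lowest without overlap, and IL-4+ lung minus IL-4+ LN was 0.93 (SE 0.24, limma adjusted p = 0.0684).

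Ifngr1, the ligand-binding chain of the IFNγ receptor (chr10:19591949-19610229, plus strand), had an open start in every population. The log2 density of its promoter region (chr10:19591270-19592201) was 5.87 and 5.94 in IL-4+ LN, 5.80, 5.91 and 6.08 in IL-4+ lung and 5.97 and 6.09 in IFNγ+ lung libraries. IL-4+ lung libraries overlapped both other populations, the IFNγ+ lung libraries lay just above the LN ones, and the 3 differences were between -0.10 and 0.12 with SE of 0.15 to 0.16. It was the most accessible region of the gene and, with the Il12rb2 intron, 1 of 2 receptor regions whose log2 density exceeded 6 in any library.

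Over the whole Ifngr1 window the IFNγ+ lung values lay above the LN values, without a call. The summed normalized insertions were 120.7 and 102.3 in IL-4+ LN, 109.3, 159.1 and 179.8 in IL-4+ lung and 159.5 and 173.1 in IFNγ+ lung libraries, so that IL-4+ lung overlapped both other populations and the IFNγ+ lung libraries lay above the LN ones. The log2 difference of IFNγ+ lung minus IL-4+ LN was 0.58 (SE 0.22), which was not called (limma adjusted p = 0.262). It was 0.70 within the wide class, and with the spread class as a covariate it was 0.81 (limma adjusted p = 0.00184). The covariate fit called 857 of 17021 gene sums higher in this comparison, where 228 were called without the covariate. All 20 of the Ifngr1 regions had a positive difference for IFNγ+ lung minus IL-4+ LN in the main fit, with a median of 1.17, beside 48.5% positive and a median of -0.03 over all regions, but none was called. The smallest adjusted p was at the region 9.24 kb before the start (chr10:19582187-19583235), at 3.48 and 3.91 in IFNγ+ lung against 2.44 and 2.58 in IL-4+ LN libraries (log2 difference 1.19, SE 0.29, limma adjusted p = 0.0489), below the fold minimum. IL-4+ lung minus IFNγ+ lung was -0.18 (SE 0.20) for the sum and -0.60 within the wide class, where IL-4+ lung has replicate 1 only. It turned to 0.03 without that replicate, which sets narrow IL-4+ lung libraries against wide IFNγ+ lung libraries. At the far end of the window, a region 28.0 kb after the Ifngr1 start whose nearest gene start is that of Il22ra2 had log2 densities of 3.56 and 3.79 in IFNγ+ lung and 1.13 to 2.8 in the other libraries.

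Ifngr2, the signaling partner of IFNGR1 (chr16:91547072-91565623, plus strand), differed in direction from 1 region to another. Its summed normalized insertions were 90.1 and 67.4 in IL-4+ LN, 81.2, 116.4 and 126.7 in IL-4+ lung and 63.0 and 68.0 in IFNγ+ lung libraries. Every IL-4+ lung library was above the IFNγ+ lung libraries, and the LN overlapped both. The log2 differences were 0.70 (SE 0.21) for IL-4+ lung minus IFNγ+ lung, 0.45 (SE 0.21) for IL-4+ lung minus IL-4+ LN and -0.25 (SE 0.23) for IFNγ+ lung minus IL-4+ LN cells, none called (limma adjusted p = 0.270, 0.401 and 0.578). Within the wide class the first was 0.31.

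One region of Ifngr2, 15.0 kb inside the gene and 463 bases from an internal annotated start (chr16:91561786-91562410), was highest in IFNγ+ lung cells. Its density was 6.2 and 4.6 in IL-4+ LN, 7.7, 13.2 and 11.5 in IL-4+ lung and 21.2 and 20.1 in IFNγ+ lung libraries. The populations did not overlap and IL-4+ lung cells were between the others. IFNγ+ lung was 3.86-fold above IL-4+ LN (log2 difference 1.95, SE 0.31, limma adjusted p = 0.00893), and the intermediate steps of 0.97 each were not called (limma adjusted p = 0.110 and 0.177). By contrast, the promoter region (chr16:91545445-91548453) had log2 densities of 4.00 and 3.74 in IL-4+ LN, 3.82, 4.36 and 4.35 in IL-4+ lung and 3.15 and 3.26 in IFNγ+ lung libraries, lowest in IFNγ+ lung cells, and its difference of 0.98 between the lung populations was not called (SE 0.24, limma adjusted p = 0.108). Of the 8 regions, 7 were higher in IL-4+ lung than in IFNγ+ lung cells, and the region near the internal start was the exception.

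**Figure D5:**
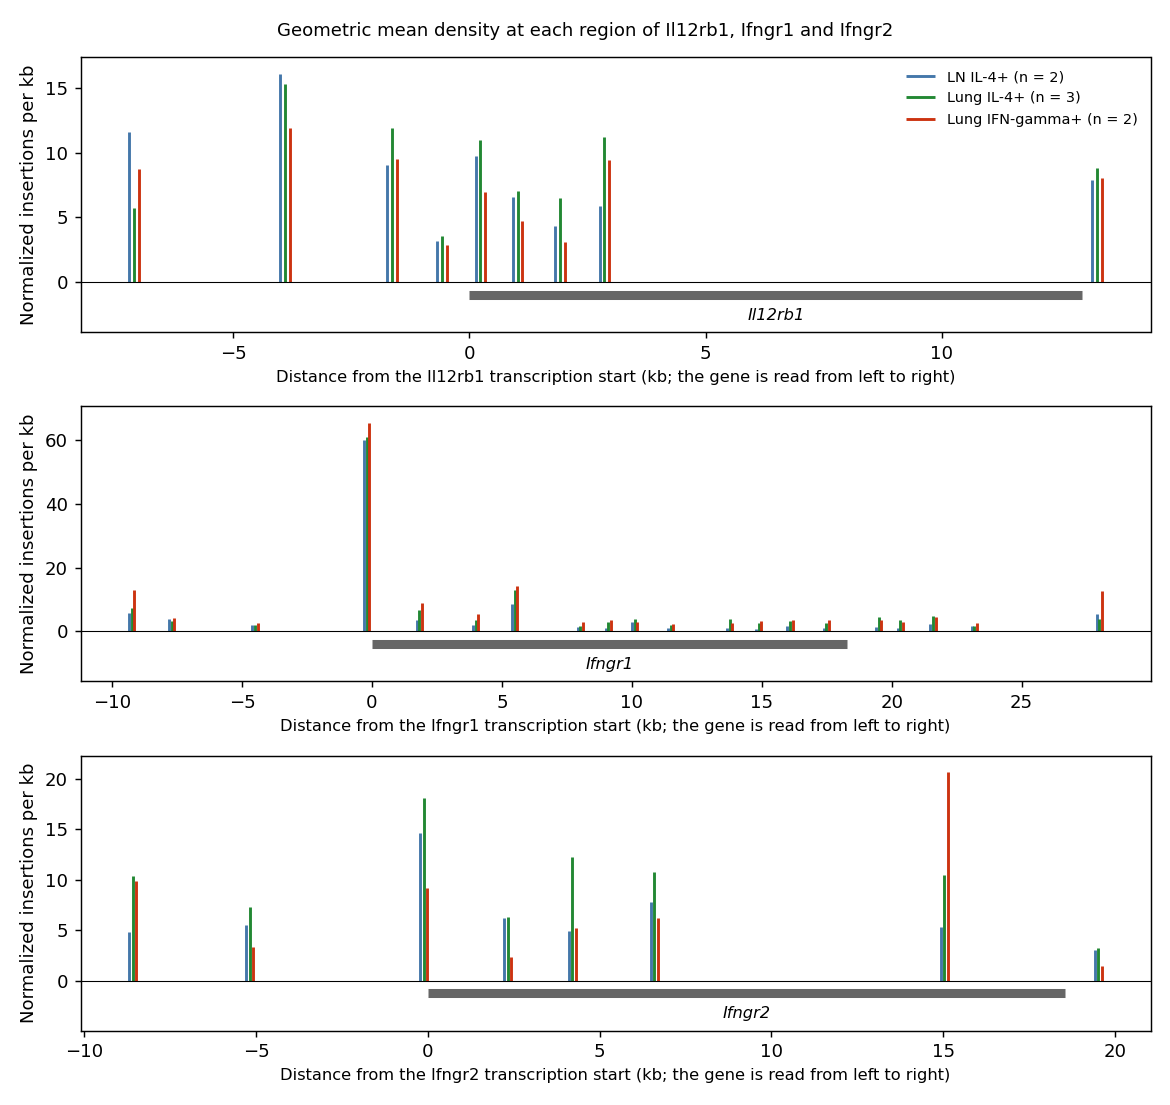
Geometric mean density (normalized insertions per kb, linear axis) at each region of Il12rb1, Ifngr1 and Ifngr2 by distance from the gene start, with 1 line per population. The Ifngr1 start has lines of nearly equal height. At Ifngr2 the IFNγ+ lung line is the lowest at the start and the highest at the region 15.0 kb inside, and IL-4+ lung lies above IL-4+ LN at both.

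Per kilobase of region, the genes ranked differently in the 3 populations. In IFNγ+ lung cells the mean density over a gene's regions was 9.79 ± 0.57 for Ifngr1, 7.92 ± 0.60 for Il12rb1, 7.88 ± 0.58 for Il12rb2, 7.38 ± 0.40 for Ifngr2 and 5.05 ± 0.32 for Il23r (SD, n = 2), and the spreads of the middle 3 overlapped. The SD here is between libraries, which all genes share, so such an overlap does not compare genes within a library. In IL-4+ lung cells the mean density was 12.2 ± 2.7 for Ifngr2, 10.5 ± 1.9 for Il12rb1, 8.79 ± 2.13 for Ifngr1, 3.45 ± 0.45 for Il12rb2 and 1.95 ± 0.25 for Il23r (SD, n = 3), and the spreads of the first 3 overlapped. In IL-4+ LN cells it was 9.64 ± 3.78 for Il12rb1, 8.89 ± 1.81 for Ifngr2, 6.56 ± 0.76 for Ifngr1, 4.53 ± 0.01 for Il12rb2 and 1.96 ± 0.07 for Il23r (SD, n = 2), where again neighbors among the first 3 overlapped in spread. The Il12rb1 values include the regions within Mast3, and the Il12rb2 values those within Serbp1, so these ranks are those of the windows. Il12rb2 and Il23r were thus the lowest pair in both IL-4+ populations. In IFNγ+ lung cells Il23r was again lowest, and Il12rb2 lay within the range of Il12rb1, Ifngr1 and Ifngr2.

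The 10 kb limit of the windows left out neighboring regions. Between Il12rb2 and Il23r, the first region outside the Il12rb2 window (19.3 kb from the gene) had log2 densities of 3.43 and 3.42 in IFNγ+ lung libraries and 0.69 to 3.13 in the others, and the first outside the Il23r window (22.9 kb from the gene, chr6:67399534-67400032) had 5.67 in both IFNγ+ lung libraries, 3.33 and 3.48 in IL-4+ LN and 1.63 to 2.31 in IL-4+ lung libraries. Just inside those limits were the Il12rb2 region 2.01 kb before the start, at 2.50 and 2.75 in IFNγ+ lung against 0.35 to 1.22 in the others, and the called region beyond the end of Il23r. Outside the Ifngr1 window, 13.0 kb before the gene, a region had 3.69 and 3.80 in IL-4+ LN and 5.08 to 5.57 in the lung libraries, while the one just inside, 8.71 kb before the gene, is the region with 2.44 to 3.91 described above. At Ifngr2 the regions 8.15 and 10.0 kb before the gene, just inside and just outside, had 2.12 to 3.63 and -0.19 to 2.87. At Il12rb1 the regions 6.88 and 10.7 kb before the gene had 2.03 to 3.73 and 4.85 to 5.73, both within Mast3.

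The surrounding pathway was read from 37 genes listed by role. They are the genes of the ligands, the JAK kinases, STAT proteins, lineage factors, inhibitors, IFNγ target genes and related receptors, and their windows held 537 regions. Between IL-4+ lung and IFNγ+ lung cells 1 region was called higher in IL-4+ lung and 3 in IFNγ+ lung cells (0.186% and 0.559%, beside 0.108% and 0.387% of all regions). Between IL-4+ lung and IL-4+ LN cells 13 were higher in lung cells and 3 in LN cells (2.42% and 0.559%, beside 1.05% and 0.695%), and between IFNγ+ lung and IL-4+ LN cells 23 and 5 (4.28% and 0.931%, beside 2.17% and 0.862%). Median differences of the 537 regions in these comparisons were 0.23, 0.28 and 0.06. As whole windows, 0 of 37 were called in the first comparison by limma (5 at an unadjusted p below 0.05), 2 rose in IL-4+ lung and 3 in IFNγ+ lung cells relative to IL-4+ LN cells (beside 0.664% and 1.34% of all gene sums), and 0 were called lower in either (12 in each comparison at an unadjusted p below 0.05).

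The windows that rose belonged to the IL-18 receptor and to Ifng. Il18r1, the ligand-binding chain of the IL-18 receptor, held 54.4 and 57.5 normalized insertions in IL-4+ LN, 96.9, 120.0 and 137.4 in IL-4+ lung and 133.8 and 137.6 in IFNγ+ lung libraries. It rose by 1.06 and 1.28 on the log2 scale in IL-4+ lung and IFNγ+ lung cells over the LN (limma adjusted p = 0.0286 and 0.0146). Il18rap, its accessory chain next to it, held 8.6 and 12.3 in the LN, 36.3, 29.9 and 29.7 in IL-4+ lung and 39.3 and 40.2 in IFNγ+ lung libraries (1.63 and 1.95, limma adjusted p = 0.0172 and 0.0105). The lung populations differed at neither gene beyond the test (-0.22 and -0.32, limma adjusted p = 0.442 and 0.396). Ifng was called between IFNγ+ lung and IL-4+ LN cells (2.31, limma adjusted p = 0.0141); the cells were sorted on its reporter.

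Other pathway genes were called at single regions. Tbx21, which encodes T-bet, had 3 regions higher in IFNγ+ lung and 1 higher in IL-4+ lung than in IL-4+ LN cells, Stat4 had 2 and 1, and Runx3 had 2 and 3. Of these the whole windows were not called (limma adjusted p from 0.0582 to 0.681). Il10ra, a chain of the IL-10 receptor, had 2 regions higher in IL-4+ lung than in IL-4+ LN cells, 1 of which was also higher than in IFNγ+ lung cells. The windows of the kinases Jak1, Jak2 and Tyk2 held 131 regions and 0 calls in any comparison.

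The genes whose summed signal was most like that of a receptor gene were sought among 2436 protein-coding genes with at least 3 regions and a range of at least 1 on the log2 scale. Pearson's r over the 7 libraries is a description, since the libraries share their populations and spread classes. For Il12rb2 these were Gm11077 and Ntn4 (r = 0.98 each) and Bfsp1 (r = 0.97), and for Il23r they were Arsb, Bst1 and Mrvi1 (r = 0.98 each). For Ifngr1 they were Neurl3, Cxcr6 and Dpep2 (r = 0.90, 0.89 and 0.86), for Ifngr2 Cyfip2, Csrnp1 and Rnf19b (r = 0.996, 0.994 and 0.992) and for Il12rb1 Sh2b1, Lgi4 and Spn (r = 0.99 each).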

How the data were processed

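The authors trimmed and mapped the reads to GRCm38/mm10 (Bowtie2 2.3.2), called peaks per replicate (MACS2 2.1.1), merged them into regions, counted transposase insertions and normalized them with voom (limma 3.38.3, R 3.5.1). The deposited values are log2 normalized insertions per kilobase. With region length put back, their sorted values nearly coincided between libraries, as quantile normalization leaves them. Region starts appeared to count from 0, so 1 was added. In each library, equal insertion counts share a value to 8 decimals, and the rank of a distinct value gave a rebuilt count, a lower bound. Intervals were not computed, and depth covers counting error only.

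A linear model for each of the 113820 regions was fitted in R 4.3.3 with limma 3.58.1, with 1 mean per population, all 7 libraries, and eBayes with a variance trend, and p-values were adjusted by Benjamini-Hochberg over all regions of a comparison. Log2 sums of normalized insertions over all regions of a gene and 10 kb on each side were fitted likewise for 17021 protein-coding GENCODE M21 genes and called at an adjusted p below 0.05. Promoters lie within 1 kb of an annotated start. No pseudocount or filter was applied, and the fit was tested on simulated data. The members, lists and tests were chosen with earlier results of these data known. Regions named in the text were those called, those at the start of a gene, the most accessible of each gene, the smallest adjusted p of an uncalled gene and those beside the 10 kb limit. Regions of the Il12rb2 and Ifngr1 windows named beyond these were chosen after their values were seen. Pathway genes were named when their window or at least 2 regions were called, and the kinases after their counts were seen.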

Additional observations from a re-analysis of the deposited data

How the results depend on the processing

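Counts and gene sums below are given for A (IL-4+ lung minus IFNγ+ lung), B (IL-4+ lung minus IL-4+ LN) and C (IFNγ+ lung minus IL-4+ LN), sums as log2 differences. Whether the replicate numbers pair the samples could not be told. Deviations of same-numbered libraries correlated between -0.542 and 0.057, but in a group of 2 libraries the deviations mirror each other. They also went with the spread class: IL-4+ lung replicate 1 (wide) gave -0.542 with LN replicate 1 (narrow) and 0.542 with LN replicate 2 (wide). With a replicate block, regions called higher in IFNγ+ lung cells numbered 0 in A and 2 in C, where 0 and 468 of all regions were called. The Il12rb2 sums were then -1.24 in A and 0.80 in C and the Il23r sum 1.37 in C, and none of these sums was called. With that block 0 of all 17021 gene sums were called in any comparison. With no variance trend 0 and 5 regions were called, where 0 and 1051 of all regions were called. The Il12rb2 sums (-1.20, 0.80) then lost and the Il23r sum in A (-1.38) gained its call. Array weights gave 16 regions in A higher in IFNγ+ and 1 higher in IL-4+ lung cells. Of all regions they called 3440 and 3121, where the main fit called 441 and 123. Over gene sums they did not converge and are not given. The spread class as a covariate gave 4 regions in B and 17 in C higher in the lung, where 2436 and 3241 of all regions were called. It called the sums of Il23r in A (-1.35), Il12rb2 (-0.43) and Ifngr2 (0.36) in B and Ifngr1 in C (0.81). That fit called many more of all gene sums: 254 higher and 231 lower in A, 987 and 1613 in B and 857 and 1159 in C. The main fit called 0 and 9, 113 and 71, and 228 and 138. The covariate also turned Il12rb1 in A (-0.02) and C (0.08) and Ifngr2 in C (0.00). Rebuilt counts with median centring, an alternative chosen after seeing the data, gave uncalled Il12rb2 sums of -1.63 and 1.22 and Il23r of 1.39 in C, and turned Il12rb1 in A (-0.20) and C (0.26), Ifngr2 in A (-0.08) and C (0.32) and Il23r in B (0.21); with no scaling at all the median of all regions moved by 0.656 in A, 0.105 in B and -0.482 in C.

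Fits of 2 populations called Il23r in A (-1.38) and lost Il12rb2 (0.80) and Il23r (1.37) in C. Of all gene sums they called 121 lower in A and 0 in C. Mean log2 density in place of sums lost Il12rb2 (-0.91, 0.86) and Il23r in C (1.10), and called 0 of all genes in A and 2 in C. Quantile normalization lost Il12rb2 in A (-1.17), where 3 of all gene sums were called lower. A pseudocount of 1 (-1.33), a filter on low regions (-1.84), median centring (-1.47) and a 25 kb flank (-1.73) called Il23r in A. In that order they called 20, 18, 28 and 20 of all gene sums lower in A, where the main fit called 9. The 25 kb flank lost Il12rb2 (-0.68, 0.49) and turned Il12rb1 in B (-0.01) and Ifngr2 in C (0.04), and no flank lost Il12rb2 in C (0.78). Il23r in B turned with the filter (0.41), with no flank (0.11) and within the narrow class (0.02), and Il12rb1 within the narrow class in B (-0.10) and the wide class in C (0.18). With 1 library left out in turn, regions called higher in IFNγ+ lung cells ranged from 0 to 7 in A and 0 to 10 in C, while those called higher in IL-4+ lung cells (A, B) or in the LN (C) ranged from 0 to 1. The sums ranged from -1.27 to -1.09 (A) and 0.72 to 0.87 (C) for Il12rb2, -1.47 to -1.29 (A), -0.10 to 0.08 (B) and 1.30 to 1.43 (C) for Il23r, -0.33 to 0.03 (A) for Ifngr1 and -0.25 to 0.57 (B) and -0.64 to 0.18 (C) for Il12rb1. A population left with 1 library is assumed to vary like the others. The causes were not tested, beyond the fewer samples that leaving out a library brings. The 14 calls of single regions kept their direction in every alternative, and 73 of 252 refits lost the call.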
